A study of Mus musculus with 12 samples.

Results

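The Zfp36 family is described here by its members Zfp36, Zfp36l1 and Zfp36l2, 3 of the 23235 genes in a table of polysome-bound RNA from mouse oocytes, found in it by their symbols. Their proteins carry a pair of CCCH zinc fingers that bind AU-rich elements, short stretches of A and U in the 3' UTR of an mRNA. The bound protein recruits the CCR4-NOT deadenylase, which shortens the poly(A) tail, and the mRNA is then decapped and degraded. Phosphorylation by the kinase MK2 (gene Mapkapk2) of the p38 pathway lets 14-3-3 proteins bind and restrains this activity, and the mRNAs of the family hold AU-rich elements of their own. Zfp36, which encodes tristetraprolin, is an immediate early gene that limits cytokine mRNAs in macrophages. Zfp36l1 acts in development and in lymphocytes, and Zfp36l2 is needed in mouse oocytes for normal female fertility.

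All libraries came from oocytes of C57BL/6 mice at postnatal day 21, either Cnot6l-/- (KO) or wild type (WT). Cnot6l encodes a catalytic deadenylase of CCR4-NOT, and the comparison asks how polysome-bound mRNA differs in oocytes without it as meiosis proceeds. The 6 groups were KO GV and WT GV, taken at the germinal vesicle stage 48 h after PMSG (a gonadotropin that makes follicles grow), KO MI and WT MI after 8 h in culture, at metaphase I, and KO MII and WT MII after 16 h in culture, at metaphase II. Each group had 2 libraries. The labels do not say how the deletion was made, how many oocytes a library held or whether the replicates came from separate mice, so the p-values measure the spread between these libraries, which may be technical. Total RNA was not analysed here, so a change in the amount of an mRNA and a change in its share on polysomes cannot be told apart, nor can fewer cells and less RNA per cell.

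The 3 genes are each spread over 2 exons on the minus strand of the mouse build mm9 (NCBIM37). Zfp36 lies at chr7:29161803-29164247, Zfp36l1 at chr12:81208747-81214000 and Zfp36l2 at chr17:84583269-84587287. Zfp36l1 overlaps the lincRNA Gm17591 on the other strand, and the strand setting of the counting is not given in the sources used here, so reads of the pair may be shared. The letters TATTTAT, the core that the zinc fingers of Zfp36 proteins bind as RNA, were searched on the sense strand of the longest annotated 3' UTR of every gene. The 3' UTR was 774 bases long in Zfp36, 1829 in Zfp36l1 and 1822 in Zfp36l2, and each of the 3 held exactly 3 matches. Among the 10952 tested genes with a 3' UTR, 26.8% held at least 1 match and 2.99% held 3 or more. The 9 matches of the family are shown because the proteins' own binding letters stand in all 3 of their mRNAs; capitals mark the match, with up to 8 bases on each side, 5′ to 3′ on the coding strand.
Zfp36 site 1 (chr7:29161988-29162010, minus): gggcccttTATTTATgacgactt
Zfp36 site 2 (chr7:29161973-29161995, minus): gacgacttTATTTATtgtattaa
Zfp36 site 3 (chr7:29161948-29161970, minus): ttttatagTATTTATatatattg
Zfp36l1 site 1 (chr12:81209412-81209434, minus): tcaaaacgTATTTATtgccaaac
Zfp36l1 site 2 (chr12:81209371-81209393, minus): tttgttcaTATTTATcgggatga
Zfp36l1 site 3 (chr12:81209157-81209179, minus): tgttggatTATTTATtttagaaa
Zfp36l2 site 1 (chr17:84584257-84584279, minus): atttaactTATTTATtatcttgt
Zfp36l2 site 2 (chr17:84584209-84584231, minus): ccatactgTATTTATcgagtatg
Zfp36l2 site 3 (chr17:84584023-84584045, minus): gtatgtaaTATTTATttcattaa
In each gene 1 of the 3 matches lies inside the longer word TTATTTATT, the preferred nonamer of the family, which 7.08% of the tested genes with a 3' UTR held. The matches sit close together in Zfp36, all in the last 200 bases of its 3' UTR, and further apart in the other two. A match is a description of the letters and does not show that a protein bound there.

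Levels are FPKM (fragments per kilobase of transcript, scaled to the fragments of the library) as deposited, which can be compared between genes because they are divided by length. The libraries hold 9064 to 13319 genes above 0 and their FPKM totals run from 884142 to 1663871, lowest in WT MII and highest in KO MI, so differences of the members are given also relative to the median of all genes and after scaling the libraries to a common median. Cnot6l itself had 6.28 and 21.57 FPKM in KO GV, 38.67 and 16.14 in WT GV, 23.49 and 16.51 in KO MI, 68.53 and 47.88 in WT MI, 16.35 and 16.01 in KO MII, and 65.22 and 49.39 in WT MII, so reads of the gene remained in all KO libraries, which overlap WT at GV; the deleted part of the gene is not named in the labels, so these values do not check the genotype. All 12 oocyte markers were above 0 in every group. Of 20 cumulus and granulosa cell markers, 7 to 17 were above 0 per group, with Foxl2, Areg and Ereg at 0 throughout. Of 7 leukocyte and endothelial markers, 2 to 4 were above 0 per group. Pecam1, an adhesion molecule of both cell types, had 13.09 to 70.23 FPKM and was above 0 in all 12 libraries, Kdr was above 0 in 8, at up to 4.8 FPKM, and Cd68 in 6, at up to 23.14 FPKM. Ptprc and Cdh5, which define leukocytes and endothelium, were at 0 in all libraries.

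Zfp36 was the highest of the family in 9 of 12 libraries and Zfp36l2 in the other 3, and all 3 genes were of low abundance. Mean levels over the 12 libraries were 6.63 FPKM for Zfp36, 2.79 for Zfp36l2 and 0.823 for Zfp36l1. Among genes above 0 in a library, Zfp36 stood between the 14.6th and the 55th percentile, Zfp36l2 between the 2.03rd and the 38.5th and Zfp36l1 between the 4.92nd and the 14.4th. Zfp36l1 and Zfp36l2 were listed at 0 in 3 libraries each, and an exact 0 in such a table can be a failed estimate. The summed level of the 3 genes was 5.74 and 13.55 FPKM in KO GV, 20.83 and 13.96 in WT GV, 16.22 and 14.11 in KO MI, 3.76 and 6.14 in WT MI, 9.22 and 2.32 in KO MII, and 15.37 and 1.8 in WT MII. As deposited, the sum was therefore lower in KO than in WT at GV and higher in KO at MI without overlap. At MII the WT pair spanned the KO pair. Of all genes tested, 24.2% were lower in KO at GV and 69.5% higher in KO at MI without overlap. The nearest libraries at GV were KO GV replicate 2 (13.55) and WT GV replicate 2 (13.96). Their median scaling factors were 1.187 and 1.27, and after division by these factors the genotypes overlap at GV.

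**Figure D1:**
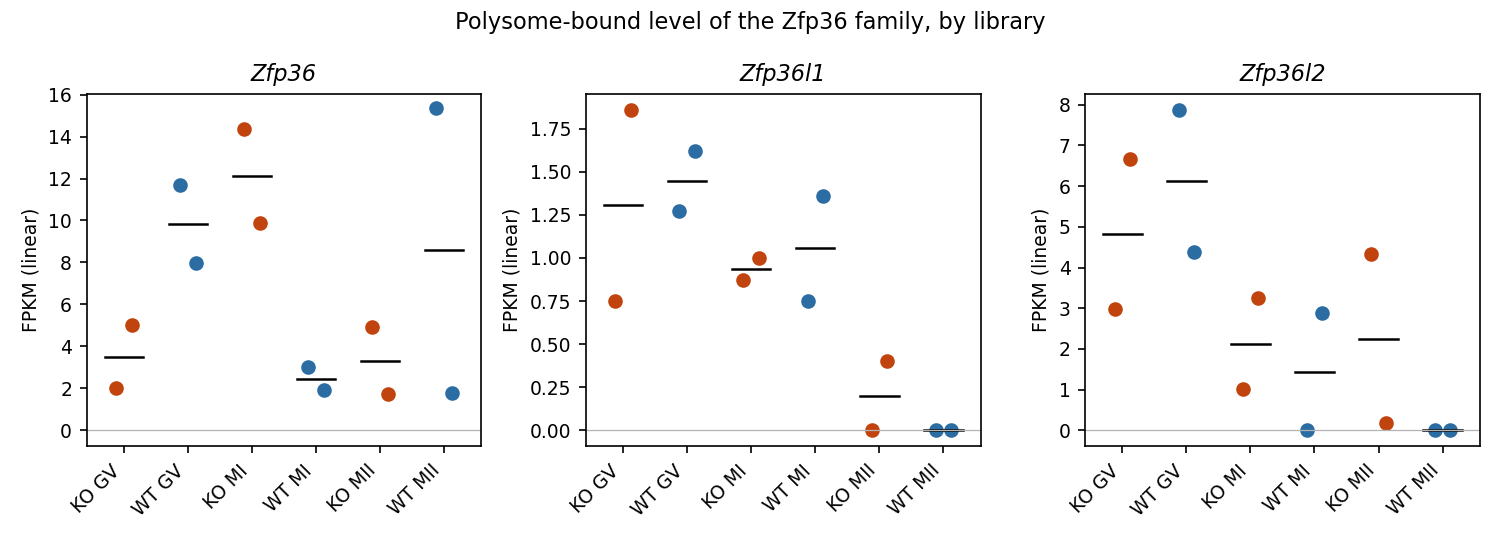
Polysome-bound level in FPKM (linear axes that differ between panels) of Zfp36, Zfp36l1 and Zfp36l2 in KO and WT oocytes at GV, MI and MII; each point is a library (orange KO, blue WT) and each bar the mean of 2. Zfp36 is below WT in both KO GV libraries and above WT in both KO MI libraries, while the WT MII libraries stand far apart at 15.37 and 1.8 FPKM.

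Zfp36 had 2.00 and 5.03 FPKM in KO GV against 11.68 and 7.97 FPKM in WT GV. It had 14.34 and 9.87 FPKM in KO MI against 3.01 and 1.90 FPKM in WT MI. It had 4.90 and 1.73 FPKM in KO MII against 15.37 and 1.8 FPKM in WT MII. The genotypes do not overlap at GV or at MI, in opposite directions, and they overlap at MII, where the WT libraries differ more from each other than any other pair. Ordered by group mean, Zfp36 was highest in KO MI (12.1 ± 3.16 FPKM), then WT GV (9.82 ± 2.62), WT MII (8.58 ± 9.6), KO GV (3.52 ± 2.14), KO MII (3.32 ± 2.24) and WT MI (2.46 ± 0.785; SD, n = 2 each). Every pair of neighbours in that order has overlapping libraries. With the libraries scaled to a common median, the means were 7.83 FPKM in KO MI against 3.11 in WT MI, and 2.96 in KO GV against 7.77 in WT GV.

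No difference of Zfp36 passed the test across all genes, limma on log2(FPKM + 1) with Benjamini-Hochberg adjustment over 11667 genes and a threshold of 0.05. At GV the KO minus WT difference was -1.33 on that log2 scale (SE 0.826, 95% interval -3.16 to 0.51, limma adjusted p = 0.688); 1.56% of all genes were called at GV, and 42.0% had libraries that do not overlap (24.2% with KO lower). Relative to the median of all genes it was -1.27, and after median scaling -1.2. At MI the difference was 1.92 (SE 0.826, interval 0.09 to 3.76, limma adjusted p = 0.103). There 28.4% of all genes were called, 72.6% did not overlap between genotypes (69.5% with KO higher), and the median of all genes was itself 1.03 higher in KO. Relative to that median Zfp36 was 0.89 higher in KO MI, and after median scaling 1.11 higher (limma adjusted p = 0.561). The MI difference passed the threshold without WT MII replicate 1 (limma adjusted p = 0.0381) and without WT MII replicate 2 (limma adjusted p = 0.0348), although neither library enters it. At MII the difference was -0.75 (SE 0.826, interval -2.59 to 1.08, limma adjusted p = 0.543), with 28.6% of genes called and 59.5% not overlapping. The median of all genes was 0.81 higher in KO MII, and relative to it Zfp36 stood at -1.57; after median scaling it stood at -1.25 (limma adjusted p = 0.332). Without WT MII replicate 1 that MII difference was 0.52, and without WT MII replicate 2 it was -2.03, so the library left out sets its direction.

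Between GV and MI the Zfp36 libraries of the 2 genotypes moved in opposite directions. In KO it was higher at MI than at GV in both libraries (14.34 and 9.87 against 2.00 and 5.03 FPKM), a difference of 1.60 (SE 0.826, limma adjusted p = 0.312), where 10.2% of genes were called and 56.0% did not overlap (37.3% with MI higher). Relative to the median of all genes this was 1.34, and after median scaling 1.21 (limma adjusted p = 0.571). In WT it was lower at MI than at GV in both libraries (3.01 and 1.90 against 11.68 and 7.97 FPKM), a difference of -1.65 (SE 0.826, limma adjusted p = 0.173), where 24.8% of genes were called and 64.6% did not overlap (55.2% with MI lower). The median of all genes was itself -0.87 over this step in WT; relative to it Zfp36 stood at -0.78, and after median scaling at -1.10 (limma adjusted p = 0.455). The test of the difference between those courses, KO minus WT, gave 3.25 (SE 1.17, interval 0.65 to 5.84, unadjusted p = 0.0190, limma adjusted p = 0.0891). This interaction was called for 14.7% of all genes (14.4% with a positive sign), and its median over all genes was 1.13. Relative to that median Zfp36 stood at 2.12, and after median scaling at 2.31 (limma adjusted p = 0.507). The interaction passed the threshold without WT MII replicate 1 (limma adjusted p = 0.0286) and without WT MII replicate 2 (limma adjusted p = 0.0259), although neither library enters the contrast.

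Between MI and MII the KO libraries of Zfp36 were lower at MII without overlap, by a difference of -1.69 (SE 0.826, limma adjusted p = 0.277; 7.35% of genes were called, 60.6% did not overlap and 54.9% did so with MII lower). Relative to the median of all genes this was -1.09, and after median scaling -1.15 (limma adjusted p = 0.795). In WT the difference was 0.99 (SE 0.826, limma adjusted p = 0.45), with libraries that overlap; 22.1% of genes were called and 48.3% did not overlap. Relative to all genes the WT value was 1.26, and after median scaling 1.2. WT MII replicate 1 again sets the sign, since without it the difference was -0.28 and without replicate 2 it was 2.26. The interaction of genotype with the step from MI to MII was -2.68 (SE 1.17, unadjusted p = 0.0444, limma adjusted p = 0.236), where 6.52% of genes were called. Relative to all genes it was -2.42, and after median scaling -2.35 (limma adjusted p = 0.333). It passed without WT MII replicate 2 (-3.95, limma adjusted p = 0.0327).

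Summed levels of the cumulus and granulosa markers separated the genotypes at every stage. At GV and MI this was in the direction of Zfp36, whose genotypes overlap at MII. Each separation depended on 1 marker. The sums ran from 165 to 268 FPKM in KO GV against 311 to 343 in WT GV, from 168 to 181 in KO MI against 135 to 156 in WT MI, and from 83.6 to 125 in KO MII against 70.7 to 81.0 in WT MII. Inha, an inhibin subunit and the highest marker at GV, had 112.61 and 152.36 FPKM in KO GV against 200.94 and 238.80 FPKM in WT GV. Cyp19a1, the aromatase and the highest marker at MI over both genotypes together, had 100.81 and 92.02 FPKM in KO MI against 36.53 and 32.83 FPKM in WT MI. In WT MI another marker, Ptx3, stood near it with 32.07 and 40.24 FPKM. Without Inha the GV sums overlap (52.2 to 116 in KO GV against 104 to 110 in WT GV). Without Cyp19a1 the MI sums turn round (76.5 to 80.3 in KO MI against 98.8 to 123 in WT MI). The MII sums turn round without it too (19.8 to 26.6 in KO MII against 33.4 to 37.9 in WT MII). Leaving these genes out was chosen after seeing the data. Each of them itself separates the genotypes, so leaving it out moves the sums the other way. Of the 14 tested markers 0 were called at GV (1.56% of all genes). There 4 were higher and 5 lower in KO without overlap (17.9% and 24.2% of all genes). At MI 1 of 14, Cyp19a1, rose in KO (27.9% of all genes), and 2, the cumulus matrix genes Ptx3 and Tnfaip6, fell (0.463%). Within KO the MI and GV sums overlap, unlike the Zfp36 values. Within WT the MI sums (135 to 156) lie below the GV sums (311 to 343) without overlap, as the Zfp36 values do. The leukocyte and endothelial markers, most of whose sum is Pecam1, ran from 68.6 to 69.5 FPKM in KO MI against 13.1 to 42.2 in WT MI, and their genotypes overlap at GV and MII. Cumulus cells also express immediate early genes, and the part of such cells, or of leukocytes and endothelium, in the Zfp36 values was not tested. Fos, another immediate early gene, had 4.74 and 6.34 FPKM in KO GV against 46.50 and 61.37 FPKM in WT GV, with a limma adjusted p of 0.128. Junb, of the same class, had 21.69 and 31.30 FPKM in KO GV against 48.23 and 58.52 in WT GV. Egr1 (22.48 and 11.46 against 21.51 and 47.23) and Dusp1 (89.92 and 136.51 against 119.12 and 77.10) overlapped between the genotypes at GV. At MI Fos had 1.08 and 0 FPKM in KO MI against 3.10 and 0 in WT MI, with overlap. Egr1 also overlapped there (17.71 and 8.70 against 8.97 and 6.41). Junb was higher in KO MI without overlap (20.73 and 26.51 FPKM, listed at 0 in both WT MI libraries). So was Dusp1 (288.37 and 271.57 against 151.65 and 128.68), as were 69.5% of all genes tested.

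Zfp36l2 was highest in GV oocytes of both genotypes and listed at 0 in both WT MII libraries. It had 2.99 and 6.66 FPKM in KO GV against 7.88 and 4.37 FPKM in WT GV. It had 1.01 and 3.24 FPKM in KO MI against 0 and 2.88 FPKM in WT MI. It had 4.32 and 0.19 FPKM in KO MII, whereas both WT MII libraries were listed at 0. The genotypes overlap at GV and MI, and at MII both KO libraries lie above 0, although the lower of them only by 0.19 FPKM; 48.9% of all genes were higher in KO MII without overlap. By group mean the order was WT GV (6.12 ± 2.48 FPKM), KO GV (4.83 ± 2.60), KO MII (2.26 ± 2.92), KO MI (2.12 ± 1.58), WT MI (1.44 ± 2.04) and WT MII (0; SD, n = 2 each), and no neighbours in it are separated.

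The KO minus WT difference of Zfp36l2 was -0.32 at GV (SE 0.898, interval -2.32 to 1.67, limma adjusted p = 0.970) and 0.57 at MI (SE 0.898, interval -1.43 to 2.56, limma adjusted p = 0.637). Relative to the median of all genes the GV value was -0.26 and the MI value -0.46, and after median scaling they were -0.23 and 0.07. At MII no fold is given against libraries listed at 0; the limma adjusted p was 0.308. In WT the level at MI lay below that at GV in both libraries, as it did without overlap for 55.2% of all genes tested. The difference was -1.81 (SE 0.898, interval -3.80 to 0.18, limma adjusted p = 0.169), or -0.94 relative to all genes and -1.40 after median scaling. Without WT MI replicate 1 that difference was -0.83, and without WT MI replicate 2 it was -2.79. In KO the MI minus GV difference was -0.92 (SE 0.898, limma adjusted p = 0.656), with overlap, and the MII minus MI difference was -0.21 (SE 0.898, limma adjusted p = 0.925). Relative to all genes these were -1.18 and 0.38, and after median scaling -1.10 and 0.13. The interaction of genotype with the step from GV to MI was 0.89 (SE 1.27, interval -1.93 to 3.71, limma adjusted p = 0.646), -0.24 relative to all genes and 0.31 after median scaling. The step from MI to MII in WT, which ends at 0, had a limma adjusted p of 0.497 and its interaction with genotype one of 0.804.

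Zfp36l1 stayed at or below 1.86 FPKM in every library and was lowest at MII. It had 0.75 and 1.86 FPKM in KO GV against 1.27 and 1.62 FPKM in WT GV. It had 0.87 and 1.0 FPKM in KO MI against 0.75 and 1.36 FPKM in WT MI. It had 0 and 0.40 FPKM in KO MII, and both WT MII libraries were listed at 0. The genotypes overlap at every stage, and the MII libraries lie below the MI libraries without overlap in both genotypes, as 54.9% of the genes tested did in KO and 30.8% in WT. By group mean the order was WT GV (1.45 ± 0.247 FPKM), KO GV (1.31 ± 0.785), WT MI (1.06 ± 0.431), KO MI (0.935 ± 0.0919), KO MII (0.200 ± 0.283) and WT MII (0; SD, n = 2 each).

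The mean level of Zfp36l1 was under the filter of 1 FPKM, so it was not among the 11667 genes, and its differences come from a fit without that filter. They were -0.12 at GV (SE 0.366, limma adjusted p = 1) and -0.07 at MI (SE 0.366, limma adjusted p = 0.977) for KO minus WT. For MI minus GV they were -0.21 in KO and -0.26 in WT (SE 0.366, limma adjusted p = 0.877 and 0.720). For MII minus MI in KO the difference was -0.71 (SE 0.366, limma adjusted p = 0.372), and the WT step, which ends at 0, had a limma adjusted p of 0.112. Relative to the median of all genes the KO minus WT values were -0.07 at GV and -1.10 at MI, and the steps were -0.47 (KO MI minus GV), 0.60 (WT MI minus GV) and -0.12 (KO MII minus MI). After median scaling they were -0.06, -0.52, -0.35, 0.11 and -0.45 in that order. These differences understate changes of so low a gene, because the pseudocount of 1 FPKM is as large as the level itself.

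Of the 18 tests of Zfp36 and Zfp36l2 (2 genes in 9 comparisons) limma called 0, and 3 had an unadjusted p below 0.05, all of Zfp36. Of the 9 comparisons of Zfp36l1 without the filter it also called 0, and 1 had an unadjusted p below 0.05. The pooled SD between replicates on the log2 scale was 0.888 for Zfp36 and 0.960 for Zfp36l2, against a median of 0.582 over all genes tested. Among genes of a like level these SDs stood at the 57.8th and the 59.8th percentile, so the scatter of the members is usual at their abundance. The SD of Zfp36l1 was 0.285, at the 5.45th percentile of its like-level genes.

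**Figure D2:**
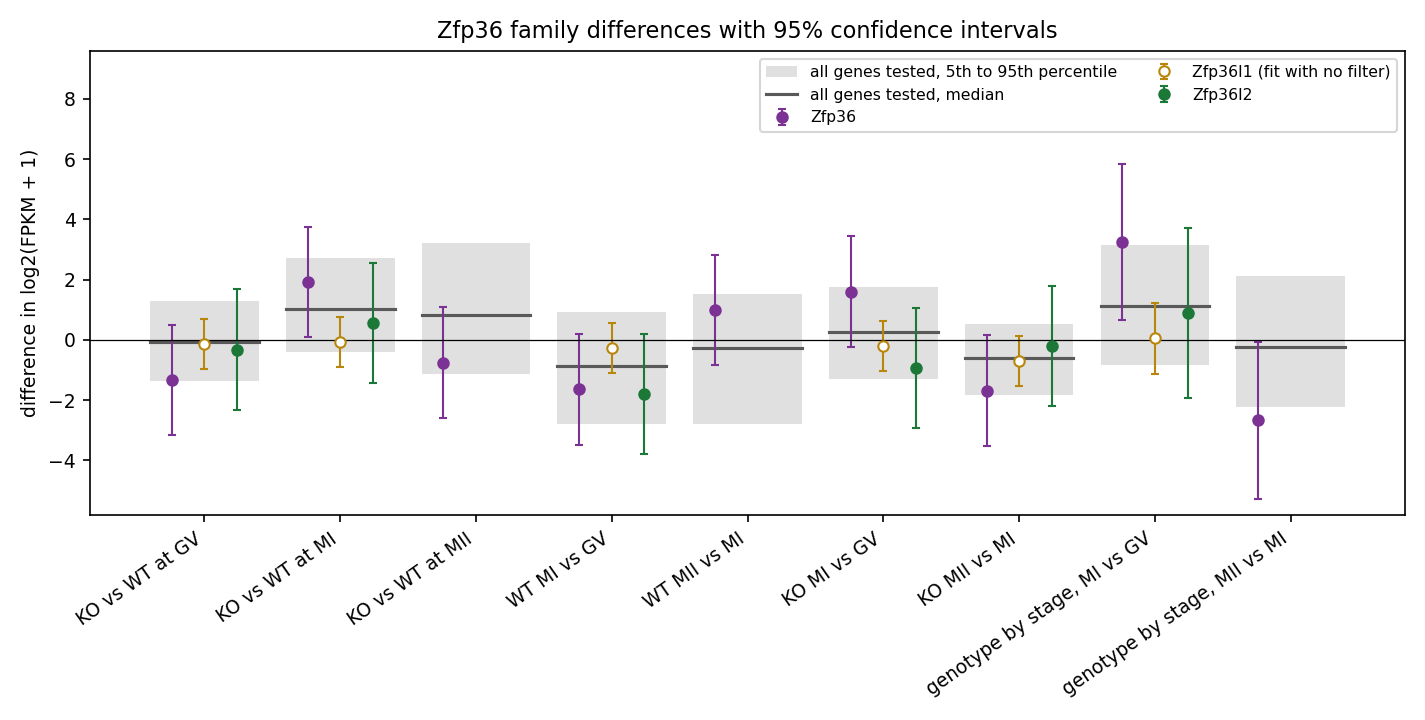
Differences in log2(FPKM + 1) for each of 9 comparisons; points are the members, bars their 95% intervals, grey boxes the 5th to 95th percentile of all 11667 genes tested and dark lines their median. Comparisons with a group listed at 0 in both libraries show no point; the interval of Zfp36 excludes 0 in KO vs WT at MI (1.92) and in the interactions (3.25 and -2.68), none of which passed the adjusted threshold.

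Partners that act with the family were followed through the same fit. Of the CCR4-NOT subunits, 10 were tested. At GV 0 of 10 were called, where 1.56% of all genes were. At MI 5 of 10 rose in KO (27.9% of all genes did) and 0 fell (0.463%), with a median of 1.07 against 1.03 for all genes; after median scaling 0 rose and 1 fell (2.16% and 2.46% of all genes). The subunits Cnot4, a ubiquitin ligase, Cnot1, the scaffold, and Cnot2 had the largest of these, at 1.3, 1.33 and 1.2 (SE 0.385, 0.424 and 0.253; limma adjusted p = 0.0312, 0.0402 and 0.00747), and each lost its call without either KO MI library. At MII 3 rose (25.4% of all genes), 1 fell (3.20%) and 6 did not pass, with a median of 0.23 against 0.81; after median scaling 2 rose and 2 fell (16.1% and 8.31% of all genes). Cnot10 had 8.90 and 16.40 FPKM in KO MII against 0 and 0.66 FPKM in WT MII (difference 3.35, SE 0.855, limma adjusted p = 0.0145), but lost its call without WT MII replicate 1 or KO MII replicate 2. Rqcd1, the older symbol of Cnot9, had 32.79 and 43.14 FPKM in KO MII against 13.77 and 4.46 FPKM in WT MII (2.11, SE 0.45, limma adjusted p = 0.00589). Cnot6l, the deleted gene, fell at MII by 1.75 on the log2 scale (SE 0.570, limma adjusted p = 0.0425), a call lost in 12 of 18 alternatives.

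The catalytic subunits Cnot7 and Cnot8, deadenylases of the CAF1 type, rose between GV and MI in both genotypes. Cnot8 had 625.89 and 675.52 FPKM in KO MI against 203.26 and 181.56 in KO GV (1.75, SE 0.161, limma adjusted p = 5.0e-05), and 421.01 and 522.72 FPKM in WT MI against 188.71 and 230.81 in WT GV (1.17, SE 0.161, limma adjusted p = 7.3e-04). Cnot7 rose by 1.23 in KO (SE 0.144, limma adjusted p = 2.9e-04) and by 0.91 in WT (SE 0.144, limma adjusted p = 0.00161). All 4 calls held under the 18 alternatives. Of the 10 subunits, 3 rose and 0 fell in KO over this step (8.89% and 1.35% of all genes), and 2 rose and 2 fell in WT (3.06% and 21.7%).

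Of the other proteins that bind AU-rich elements, 17 were tested. At GV 0 of 17 were called (1.56% of all genes). At MI 5 rose in KO and 0 fell (27.9% and 0.463% of all genes), with a median of 0.76 against 1.03, and after median scaling 0 were called. At MII 5 rose (25.4% of all genes), 1 fell (3.20%) and 11 did not pass, with a median of -0.20 against 0.81 for all genes; after median scaling 3 rose and 4 fell (16.1% and 8.31% of all genes). Cirbp, a cold-inducible RNA-binding protein, had 513.06 and 484.96 FPKM in KO MI against 138.94 and 181.9 FPKM in WT MI (1.64, SE 0.330, limma adjusted p = 0.00589; 0.68 after median scaling, limma adjusted p = 0.336). Rbms1, a single-stranded nucleic acid binder, had 7.81 and 8.72 FPKM in KO MI against 1.85 and 0 FPKM in WT MI (2.46, SE 0.760, limma adjusted p = 0.0361), a call that 8 of 18 alternatives lost. Pcbp1, a poly(C)-binding protein listed among the decay regulators, had 110.44 and 45.10 FPKM in KO MII against 559.57 and 617.57 FPKM in WT MII (-3.04, SE 0.824, limma adjusted p = 0.0195), a call lost without KO MII replicate 2 or either WT MII library. Rbms1 had 8.63 and 3.61 FPKM in KO MII and was listed at 0 in both WT MII libraries (limma adjusted p = 0.0219). Elavl1, or HuR, which stabilises mRNAs with these elements, had 15.24 and 14.79 FPKM in KO MI against 3.61 and 7.04 FPKM in WT MI and was called in no comparison.

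Of the kinases, phosphatases and 14-3-3 proteins of the p38 arm, 16 were tested. Mapkapk2, the kinase that phosphorylates tristetraprolin, had a mean under the filter of 1 FPKM and was not among them, so its values carry no test. It was under 5 FPKM everywhere, with 0.25 and 0 FPKM in KO GV against 2.19 and 4.47 FPKM in WT GV. It was listed at 0 in WT MI and in both MII groups. At GV 1 of 16 fell and 0 rose in KO (1.40% and 0.163% of all genes). That gene was the 14-3-3 epsilon gene Ywhae, with 568.07 and 492.60 FPKM in KO GV against 905.57 and 844.64 FPKM in WT GV (-0.72, SE 0.113, limma adjusted p = 0.00989), a call lost without KO GV replicate 2 or either WT GV library. At MI 7 of 16 rose in KO (27.9% of all genes), with a median of 1.21 against 1.03, and after median scaling 0 were called. Ywhag had 272.75 and 244.34 FPKM in KO MI against 83.80 and 89.88 FPKM in WT MI (1.56, SE 0.192, limma adjusted p = 4.6e-04). Map2k6, a kinase that activates p38, had 14.98 and 11.92 FPKM in KO MI and was listed at 0 in both WT MI libraries (limma adjusted p = 0.00949), a call lost without either KO MI library. Dusp1, the phosphatase that turns p38 off and itself a target of tristetraprolin in macrophages, had 288.37 and 271.57 FPKM in KO MI against 151.65 and 128.68 FPKM in WT MI (1.0, SE 0.271, limma adjusted p = 0.0223; 0.03 after median scaling), and lost its call without any 1 of these 4 libraries. At MII 5 of 16 rose and 0 fell (25.4% and 3.20% of all genes), with a median of 0.92 against 0.81, and after median scaling 2 rose and 3 fell (16.1% and 8.31%).

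Of the decapping and 5' to 3' decay genes, 10 were tested, and 0 of 10 were called at GV (1.56% of all genes). At MI 4 rose in KO and 0 fell (27.9% and 0.463% of all genes), with a median of 0.88 against 1.03, and after median scaling 0 were called. Patl2, an oocyte paralogue of the decapping activator Patl1, had 177.78 and 157.92 FPKM in KO MI against 59.83 and 48.10 FPKM in WT MI (1.63, SE 0.249, limma adjusted p = 0.00159). At MII 3 rose (25.4% of all genes), 1 fell (3.20%) and 6 did not pass, and after median scaling 2 rose and 3 fell (16.1% and 8.31%). Pnrc2, a decapping coactivator, had 11.33 and 5.27 FPKM in KO MII against 0.33 and 0 FPKM in WT MII (2.93, SE 0.690, limma adjusted p = 0.00976), a call lost without KO MII replicate 1. The gene that fell was Dcp1a, an activator of the decapping enzyme, with 232.27 and 258.41 FPKM in KO MII against 693.05 and 614.89 FPKM in WT MII (-1.41, SE 0.177, limma adjusted p = 2.4e-04). Its step from MI to MII was 2.16 in WT (SE 0.177, limma adjusted p = 1.7e-05), and the interaction with genotype was -2.17 (SE 0.251, limma adjusted p = 7.5e-04). The calls of Dcp1a at MII and over that step held under all 18 alternatives.

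**Figure D3:**
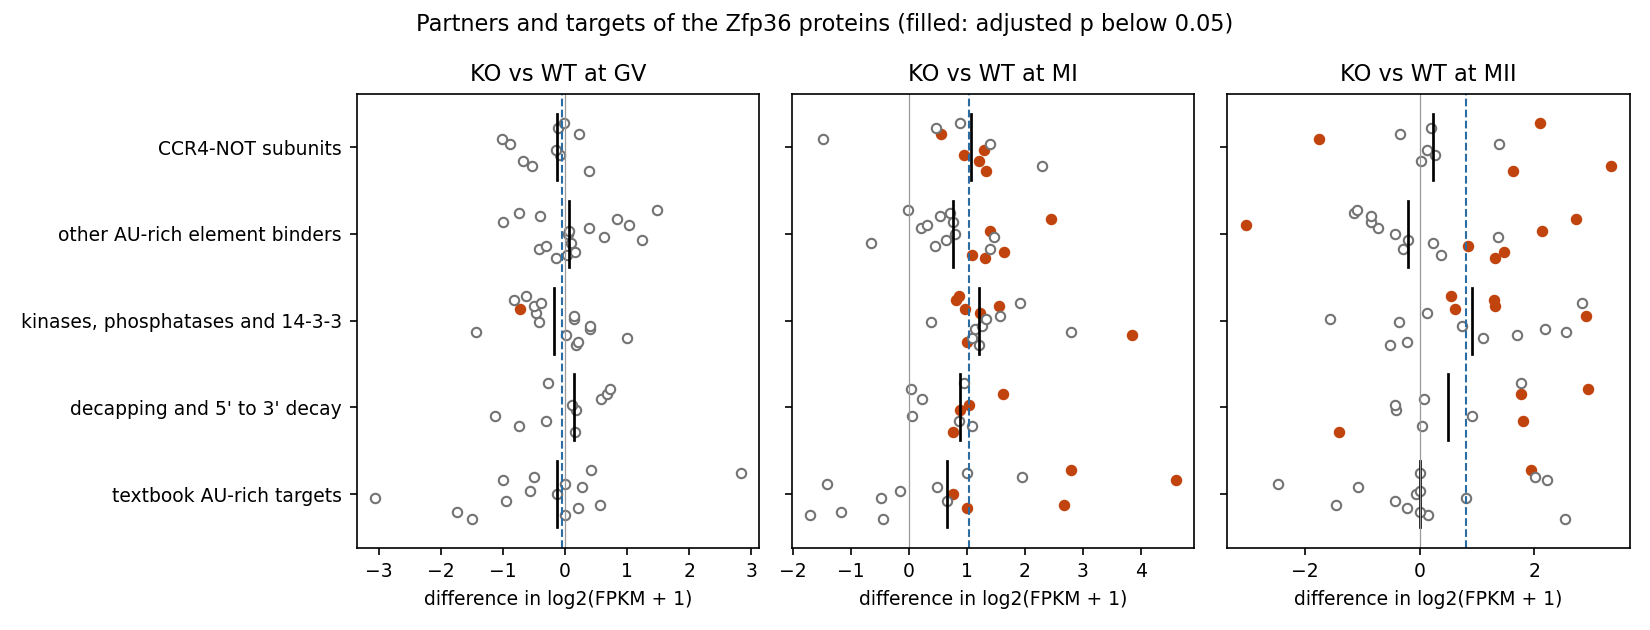
KO minus WT differences in log2(FPKM + 1) at each stage for 5 lists of partners and targets of the Zfp36 proteins; each point is a gene, filled where the limma adjusted p is below 0.05, black bars are list medians and the dashed line the median of all genes tested. At GV 1 point is filled (Ywhae), while at MI all filled points lie to the right of 0, as do most genes.

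Of 36 mRNAs known as AU-rich targets of the family in other cells (the members left out), 15 were tested and 12, mostly cytokine genes, were listed at 0 in every library. At GV 0 of 15 were called (1.56% of all genes). At MI 5 of 15 rose in KO and 0 fell (27.9% and 0.463% of all genes), with a median of 0.65 against 1.03, and after median scaling 1 rose (2.16%). Junb, an AP-1 subunit of the immediate early class, had 20.73 and 26.51 FPKM in KO MI and was listed at 0 in both WT MI libraries (limma adjusted p = 0.00267, and 0.0305 after median scaling). Plk3, a polo-like kinase, had 9.42 and 3.68 FPKM in KO MI and was listed at 0 in both WT MI libraries (limma adjusted p = 0.00741; 0.0540 after median scaling). E2f1, a cell cycle transcription factor, had 50.54 and 41.01 FPKM in KO MI against 8.50 and 4.55 FPKM in WT MI (2.68, SE 0.549, limma adjusted p = 0.00650; 0.115 after median scaling). The calls of Plk3 and E2f1 were lost without KO MI replicate 1. At MII 1 of 15 rose (25.4% of all genes) and 14 did not pass, with a median of 0 against 0.81, and after median scaling 1 rose and 3 fell (16.1% and 8.31%). The gene was Plk3, with 2.77 and 2.95 FPKM in KO MII and 0 in both WT MII libraries (limma adjusted p = 0.0314), a call lost without any 1 of these 4 libraries.

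Between GV and MI in WT, 5 of the 15 targets fell and 0 rose, where 21.7% of all genes fell and 3.06% rose, and their median was -0.58 against -0.87. After median scaling 3 fell and 1 rose (7.62% and 6.99% of all genes). Fos had 3.10 and 0 FPKM in WT MI against 46.50 and 61.37 FPKM in WT GV (-4.75, SE 0.811, limma adjusted p = 0.00243). Junb was listed at 0 in WT MI and had 48.23 and 58.52 FPKM in WT GV (limma adjusted p = 6.8e-04). In KO over the same step 0 fell and 1, Dusp1, rose (1.33, SE 0.271, limma adjusted p = 0.00974), a call lost without KO GV replicate 1 or either KO MI library. Junb had 20.73 and 26.51 FPKM in KO MI against 21.69 and 31.30 FPKM in KO GV. The interaction of Junb with genotype was called as deposited (limma adjusted p = 0.00962) and not after median scaling (limma adjusted p = 0.107) or without KO MI replicate 2. E2f1 rose in WT between MI and MII, with 63.81 and 37.75 FPKM in WT MII against 8.50 and 4.55 FPKM in WT MI (2.79, SE 0.549, limma adjusted p = 0.00468), while KO MII had 16.85 and 17.58 FPKM; the interaction was -4.14 (SE 0.777, limma adjusted p = 0.0115), a call lost without KO MI replicate 1. The core letters stand 3 times in the 3' UTR of E2f1 and of Plk3, 2 times in that of Fos and 0 times in that of Junb. The sites below are shown because they lie in called targets; in E2f1 a pair of matches overlaps.
E2f1 site 1 (chr2:154385768-154385794, minus): ggagcgttTATTTATTTATcgaggcct
Plk3 site 2 (chr4:116801326-116801348, minus): accactttTATTTATtaacagac
Fos site 1 (chr12:86818056-86818078, plus): tttcaattTATTTATtaagatgg

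All tested genes with a 3' UTR were then grouped by their number of core matches, giving 8015 genes with 0, 2003 with 1, 607 with 2 and 327 with 3 or more. At GV the median KO minus WT difference was -0.01 for 3 or more matches and -0.10 for 0 matches. At MI it was 0.91 for 3 or more and 1.04 for 0. At MII it was 0.91 for 0 matches, 0.63 for 1, 0.53 for 2 and 0.53 for 3 or more, and the share of genes that rose in KO was 28.3%, 20.8%, 18.3% and 15.3% in that order. Genes with matches have longer 3' UTRs (a median of 2958 bases with 3 or more matches and 793 with 0), so the groups were also read among the genes with a 3' UTR of 1669 bases or more. There the median at MII was 0.53 for 3 or more matches and 0.78 for 0 matches.

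Over the step from MI to MII in WT, the median was -0.42 for 0 matches, -0.05 for 1, 0.11 for 2 and 0 for 3 or more, and the share that fell was 19.9%, 9.99%, 6.43% and 6.12%. Among the long 3' UTRs it was 0.10 for 3 or more matches and -0.11 for 0. Over the step from GV to MI in WT, the median was -0.65 for 3 or more matches and -0.93 for 0. In KO the step from MI to MII had a median of -0.34 for 3 or more matches and -0.65 for 0. Medians of genes with 3 or more matches were thus less negative than those of genes with 0 at both WT steps. Between genotypes at MII they were closer to 0. All these gaps were smaller among the long 3' UTRs, with -0.64 against -0.78 over the WT step from GV to MI. Length still differed there, at medians of 3254 bases for 3 or more matches and 2415 for 0. Among 3' UTRs of 1 to 615 bases the WT step from GV to MI turned round, with -1.21 for 3 or more matches (13 genes) and -1.07 for 0. The direction held there at MII (0.51 against 1.02) and over the WT step from MI to MII (0 against -0.65). These are medians over genes, which are not replicates, and carry no test. Expression levels of the site groups are not set side by side here, and log2(FPKM + 1) understates changes of low genes. The median log2 level of the group with 3 or more matches was also taken per library, relative to the median level of all genes tested. It varied between replicates with an SD of 0.11, which is a spread of levels and not the precision of the median differences above.

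**Figure D4:**
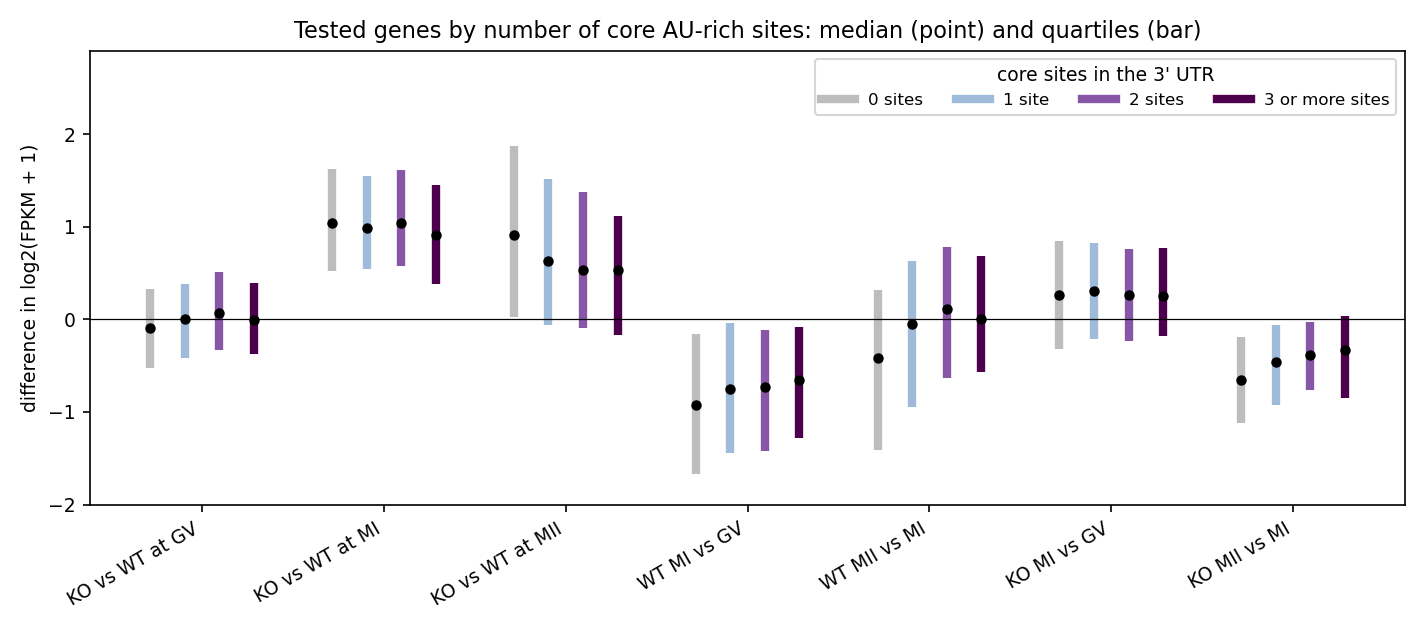
Median (point) and quartiles (bar) of the difference in log2(FPKM + 1) for tested genes by the number of core AU-rich matches in the 3' UTR, in 7 comparisons. In KO vs WT at MII the medians run from 0.91 at 0 matches to 0.53 at 3 or more, and in WT MII vs MI from -0.42 to 0.

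The genes whose pattern over the 12 libraries was most like that of each member were ranked by Pearson's r of log2(FPKM + 1), among 7772 or 7773 genes with a mean of at least 5 FPKM. For Zfp36 they were Snx16 (r = 0.875), Ccdc42 (0.875), Arl8b (0.856), Wdr75 (0.854) and Cyfip1 (0.839). Arl8b, a lysosomal small GTPase, had 128.67 and 111.88 FPKM in KO MI against 51.12 and 45.37 FPKM in WT MI, and 60.56 and 73.42 FPKM in KO GV against 114.25 and 85.81 FPKM in WT GV. For Zfp36l2 they were Pnpla2 (r = 0.928), Ppp1r14d (0.927), Eci1 (0.919), Nle1 (0.914) and Fsip1 (0.912). Pnpla2, a triglyceride lipase, had 31.68 and 26.06 FPKM in KO GV, 17.28 and 26.71 FPKM in WT GV, 16.46 and 0.89 FPKM in KO MII, and was listed at 0 in both WT MII libraries. For Zfp36l1 they were Zfp952 (r = 0.947), Men1 (0.947), Actr3b (0.942), Pink1 (0.934) and Ltbp2 (0.922). The correlations are descriptions over libraries that share their group and their total, and of each set of 5, a common median scaling kept 1 for Zfp36, 3 for Zfp36l2 and 2 for Zfp36l1.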

How the data were processed

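The authors deposited FPKM values per gene, per library and in a joint table, which hold the same values. Per the labels' protocols, polysome-bound RNA was purified, its cDNA pre-amplified, and 500 pg of it cut and tagged by Tn5 transposase. The submitters' processing notes name Cufflinks 2.2.1, Bowtie2 2.1.0, TopHat2 2.0.11, CASAVA 1.8 and the build mm9, without saying what each did. The strand setting, read filters, read totals and the factor behind each FPKM total were not found in the labels or headers. Depth in reads is unknown, so no counting interval is given and precision is judged from replicates.

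Values were analysed as log2(FPKM + 1), a scale that understates changes of low genes, for the 11667 genes with a mean of at least 1 FPKM over 12 libraries. A model of 6 group means was fitted with limma 3.58.1 under R 4.3.3 (residual df 6) with a trended prior (prior df 4.27) and 9 contrasts, 2-sided; called means an adjusted p below 0.05 over all genes tested. The script was tested on simulated data. Alternatives were a pseudocount of 0.1, no filter, median scaling, TPM rescaled from FPKM, no variance trend, a replicate block and each library left out (a group's lone library is then assumed to vary like the others), 18 in all; for the 3' UTR matches, the nonamer. 3' UTRs came from GENCODE mouse release 1 on NCBIM37, the files' build, with Python 3.11.15; 18836 symbols matched, 93.9% of tested genes. Median scaling divides each library by its median ratio over genes with a mean of at least 10 FPKM.

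The named genes are the members, up to 3 called members of each list and comparison with the largest change, the 5 genes most like each member, Cnot6l and cumulus markers. Elavl1, Mapkapk2, Dcp1a at MII, and Fos, Junb, Egr1 and Dusp1 at GV and MI were chosen after their values were seen. The members and lists were chosen with earlier results of these data known. Replicate numbers do not pair the libraries: 15 correlations between deviations of same-numbered libraries ran from -0.0292 to 0.0547. Protein sequences were not used here.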

Additional observations from a re-analysis of the deposited data

Results flagged for a closer look

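Zfp36 is singled out because its level moved in opposite directions between GV and MI in the genotypes. Both KO MI libraries (14.34 and 9.87 FPKM) lay above both KO GV libraries (2.00 and 5.03 FPKM). Both WT MI libraries (3.01 and 1.90 FPKM) lay below both WT GV libraries (11.68 and 7.97 FPKM). Of all genes tested, 37.3% were higher at MI in KO without overlap and 55.2% were lower at MI in WT without overlap. How many genes did both was not counted. The median of all genes also had opposite signs over this step, 0.26 in KO and -0.87 in WT. For the difference between the courses the median of all genes was 1.13, and relative to it Zfp36 stood at 2.12. The difference between the courses, KO minus WT, was 3.25 in log2(FPKM + 1) (SE 1.17, limma adjusted p = 0.0891), and over the 18 alternatives the limma adjusted p ran from 0.0259 to 0.507.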

How the results depend on the processing

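Over 9 comparisons under 18 alternatives, 0 of 162 checks of Zfp36l2 and 5 of 162 of Zfp36 were called, those 5 without a WT MII library. Leaving out a WT MII library kept the difference at 1.92 in KO vs WT at MI and at 3.25 in the interaction from GV to MI. In these contrasts a WT MII library enters only through the estimate of spread, which the 6 groups share. In the interaction from MI to MII the difference itself moved, to -3.95 without WT MII replicate 2. Other causes were not tested. Zfp36l1 was tested only without the filter. Leaving out 1 library each moved Zfp36 between -1.83 and -0.82 in KO vs WT at GV, 1.67 and 2.17 at MI, -2.03 and 0.52 in KO vs WT at MII, -0.28 and 2.26 in WT MII vs MI, 2.74 and 3.75 in the interaction from GV to MI, and -3.95 and -1.40 in that from MI to MII. It moved Zfp36l2 between -0.79 and 0.15 in KO vs WT at GV, -0.41 and 1.55 at MI, -2.79 and -0.83 in WT MI vs GV, -1.46 and -0.38 in KO MI vs GV, -1.30 and 0.87 in KO MII vs MI, and -0.090 and 1.87 in the interaction from GV to MI. It moved Zfp36l1 between -0.48 and 0.23 in KO vs WT at GV, -0.56 and 0.14 in KO MI vs GV, and -0.30 and 0.41 in the interaction from GV to MI. Median scaling gave Zfp36l1 -0.52 in KO vs WT at MI, 0.11 in WT MI vs GV and -0.46 in the interaction (TPM -0.35), and gave Zfp36l2 0.13 in KO MII vs MI (TPM 0.074). A pseudocount of 0.1 gave Zfp36l1 -2.21 in KO MII vs MI. The fit with a replicate block gave Zfp36 3.25 in the interaction from GV to MI (limma adjusted p = 0.0804) and changed no call of a member.

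Counts of genes called moved by over 1.5 times under some alternatives in 8 of the 9 comparisons; WT MII vs MI, with 2574 (2013 to 2786), did not. KO vs WT called 182 genes at GV (17 to 237 over the alternatives), 3311 at MI (539 to 4352) and 3340 at MII (2107 to 3490). MI vs GV called 1194 in KO (559 to 1557) and 2892 in WT (1422 to 3727), KO MII vs MI 857 (3 to 1589), and the interactions 1711 (183 to 2654) and 761 (180 to 1225). With median scaling KO vs WT at MI had 252 genes higher and 287 lower. The group with 3 or more matches held 327 genes with the core and 55 with the nonamer. Its median relative to all genes in KO vs WT was 0.05, -0.12 and -0.28 at GV, MI and MII with the core. With the nonamer it was 0.20, -0.30 and -0.41. After median scaling the medians, not taken relative to all genes, were 0.06, 0.16 and 0.08 with the core. They were 0.23, 0.15 and -0.08 with the nonamer.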
